A study of Homo sapiens with 28 samples.

Results

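KLF10 and SMAD6, a pair of regulators of TGF-beta and BMP signalling, were followed over the first 4 h of T cell activation. They are 2 of the 7485 genes in the deposited table, taken by gene symbol and chosen by their total and labelled levels over these 4 h, which were already known. Those levels, and the ratios and decay rates made from them, are therefore given as descriptions, without a test. The cells were Jurkat, a human T cell leukaemia line, collected before activation and 1, 2, 3 and 4 h after addition of phorbol myristate acetate (PMA, 0.5 µg/ml), which activates protein kinase C, and phytohaemagglutinin (PHA, 2 µg/ml), a lectin that cross-links surface receptors. At each time both total RNA and RNA labelled with 4-thiouridine, the newly made part, were sequenced, with 3 samples a group and 2 at 1 h. Being a single leukaemia line, Jurkat is a model of T cell activation and not a sample of normal T cells. All values are the authors' group means with their SD, on a normalised scale that sums to between 913919 and 1037463 a group. No value of a single sample was used except at 1 h, where a mean and an SD over 2 samples give back both values, without saying which sample is which. For labelled RNA this assumes that the authors' mean at 1 h was taken over the 2 samples analysed here.

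TGF-beta and the bone morphogenetic proteins (BMPs) bind pairs of serine/threonine kinase receptors, which phosphorylate receptor-activated SMAD proteins. These join SMAD4, enter the nucleus and act on target genes. SMAD6 is an inhibitory SMAD that acts mainly on the BMP branch, and its gene is itself a target of that branch, so it closes a negative feedback loop. KLF10, also known as TIEG1, is a zinc finger transcription factor first described as a TGF-beta-inducible early gene. It recruits the SIN3A co-repressor, and in mouse CD4+ T cells it has been tied to TGF-beta expression and to regulatory T cells.

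The stretch just before the SMAD6 start is shown because it holds the palindrome to which SMAD proteins bind, a feature that the choice of genes did not use. It is the 250 bases before the RefSeq start on the plus strand, chr15:66701986-66702235 in build GRCh38.p14, a build other than the hg19 of the deposited values. Capitals mark matches to the GC box GGGCGG, on which SP and KLF factors act, and to the palindromic SMAD element GTCTAGAC.
SMAD6 promoter: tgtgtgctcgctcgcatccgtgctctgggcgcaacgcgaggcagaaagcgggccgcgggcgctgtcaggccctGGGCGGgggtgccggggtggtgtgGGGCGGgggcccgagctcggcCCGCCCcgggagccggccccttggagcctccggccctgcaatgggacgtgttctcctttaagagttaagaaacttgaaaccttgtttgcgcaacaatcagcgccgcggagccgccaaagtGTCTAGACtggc
Both strands were searched for 9 kinds of motif. GTCTAGAC lay 12 to 5 bases before the start, and such a match was present in 0.182% of 35116 RefSeq promoters over the same 250 bases. The 2 matches to the shorter SMAD box GTCT, 1 on each strand, both lay inside this palindrome, and 77.5% of promoters hold that box. The 3 GC boxes began 177, 153 and 132 bases before the start, the last on the other strand, and 42.6% of promoters have at least 1. No match was found to GGCGCC, a GC-rich BMP-responsive element, nor to AP-1 (TGAGTCA or TGACTCA), CRE (TGACGTCA), EGR (GCGGGGGCG), NF-kB (GGGACTTTC) or the E-box CAGCTG. Of all promoters, 16.4%, 4.20%, 1.65%, 4.72%, 0.325% and 14.0% held these. GC content was 68.0%, against a median of 58.0%. These are matches of letters in 1 window, and no binding was measured here.

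KLF10 (ENSG00000155090) was a low-level transcript before activation and passed through a high, short peak. In total RNA its mean was 7.70 ± 2.39 before activation, 111 ± 4.33 at 1 h, 305 ± 18.0 at 2 h, 196 ± 59.8 at 3 h and 78.4 ± 1.54 at 4 h (SD, n = 3, and n = 2 at 1 h). The highest level was at 2 h, 39.6 times that of unactivated cells, and 4 h stood at 25.7% of it. In the order 2 h, 3 h, 1 h, 4 h and unactivated, the ranges of mean ± SD of neighbouring hours did not overlap. The widest spread was at 3 h, where the SD was 30.5% of the mean. Both samples at 1 h were far above unactivated cells, at 114 and 108. These come to 1258 and 1204 reads, at normalised library sizes of 1.11e+07 and 1.12e+07. The group means of total RNA at 1 h sum to 1017442, more than a plain CPM allows, so these sizes are not the sequencing depth. The reads could be worked out because, for all 3166 genes with a mean under 50, both 1 h values were whole multiples of 1 read within 0.02 of a read.

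Labelled KLF10 took the same course at higher values, with a smaller share of its peak left at 4 h. Its mean was 34.8 ± 10.3 before activation, 572 ± 0.676 at 1 h, 1053 ± 112 at 2 h, 505 ± 64.7 at 3 h and 117 ± 14.1 at 4 h (SD, n = 3, and n = 2 at 1 h). The 2 samples at 1 h, at 571 and 572, were almost equal. At 2 h labelled KLF10 ranked 56 from the top among all genes, against rank 5444 before activation, on a scale not adjusted for gene length. By 4 h it stood at 11.1% of its peak, still 3.36 times the level of unactivated cells. Its neighbours in order did not overlap within mean ± SD either, although 1 h and 3 h lay only 1.00 apart.

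On the log2(value + 1) scale, total KLF10 differed from unactivated cells by 3.68 ± 0.21, 5.14 ± 0.19, 4.50 ± 0.19 and 3.19 ± 0.19 at 1, 2, 3 and 4 h (± SE). Ordered from the most positive change of all genes, these ranked 3, 4, 5 and 7. In labelled RNA the changes were 4.00 ± 0.16, 4.88 ± 0.15, 3.82 ± 0.15 and 1.72 ± 0.15, and the last ranked 69. The median gene changed by between -0.01 and 0.07 in these comparisons. Between 4 h and 1 h, labelled KLF10 differed by -2.28 ± 0.16, rank 14 from the most negative change of all genes, and total KLF10 by -0.49 ± 0.21.

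SMAD6 (ENSG00000137834) went the other way, with no peak. In total RNA its mean was 17.1 ± 3.71 before activation, 16.9 ± 1.58 at 1 h, 13.9 ± 0.975 at 2 h, 6.76 ± 0.216 at 3 h and 5.69 ± 0.817 at 4 h (SD, n = 3, and n = 2 at 1 h). The level at 4 h was 33.3% of that before activation. Unactivated cells and 1 h overlapped within mean ± SD, while the later neighbours did not, 3 h and 4 h by only 0.0422. The values at 1 h were 18.0 and 15.7, or 201 and 174 reads.

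Labelled SMAD6 was lower from the second hour on and stood below its starting level by more than total SMAD6 did. Its mean was 45.1 ± 13.0 before activation, 35.4 ± 0.357 at 1 h, 17.1 ± 1.66 at 2 h, 10.0 ± 2.46 at 3 h and 6.21 ± 1.99 at 4 h (SD, n = 3, and n = 2 at 1 h). The 2 samples at 1 h had 35.7 and 35.1. At 4 h 13.8% of the unactivated level was left. Mean ± SD overlapped between unactivated cells and 1 h and between 3 h and 4 h. The log2 change was -0.34 ± 0.30 at 1 h, -1.35 ± 0.27 at 2 h, -2.07 ± 0.27 at 3 h and -2.68 ± 0.27 at 4 h (± SE), and the last had rank 5 from the most negative change of all 7485 genes. In total RNA it was -0.02 ± 0.17, -0.28 ± 0.15, -1.22 ± 0.15 and -1.43 ± 0.15, with ranks 1899, 513, 35 and 23 counted the same way. Over the 4 h the share of SMAD6 left was thus smaller in labelled than in total RNA at each hour. Fewer cells with the transcript and less of it per cell cannot be told apart in these bulk samples.

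**Figure D1:**
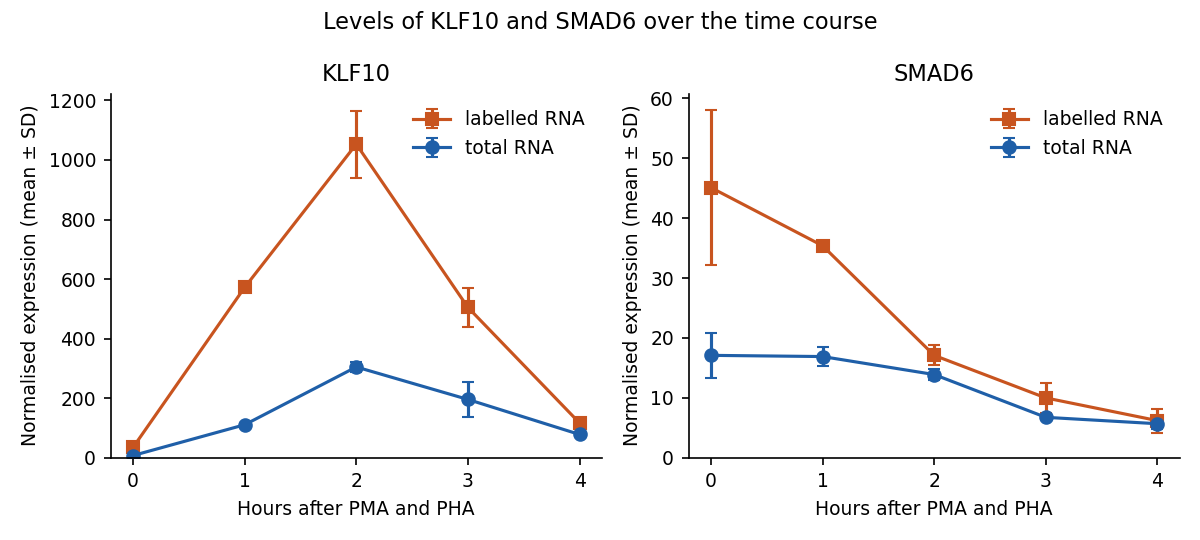
Normalised expression (group mean, bars ± SD) of KLF10 and SMAD6 in labelled RNA (squares) and total RNA (circles) against hours after activation, with 3 samples a group and 2 at 1 h. KLF10 peaks at 2 h in both, at 1053 and 305, and SMAD6 goes down from 45.1 and 17.1 before activation to 6.21 and 5.69 at 4 h.

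Levels of different genes can be set side by side only per length. The authors' deposited average RPKM, their length-scaled density in total RNA, was 41.9 for KLF10 and 8.73 for SMAD6, with 43.4% and 11.1% of genes lower. The median gene had 54.5 RPKM. Averaged over the samples, both were thus at or below the middle of the table, and SMAD6 was among its lowest genes.

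The ratio of labelled to total RNA was used to place each gene among all genes. It is no true share of new RNA, because how both kinds of RNA were scaled to each other is unknown. Whether labelled RNA was recovered alike from all genes is also unknown, so the order of ratios need not be the order of new RNA. For KLF10 it was 4.52 ± 1.1 before activation, 5.16 ± 0.14 at 1 h, 3.45 ± 0.24 at 2 h, 2.58 ± 0.49 at 3 h and 1.49 ± 0.11 at 4 h (± SE carried from the SDs). The median gene stayed between 1.05 and 1.12. KLF10 had a ratio above 99.0% of genes before activation and 99.5% at 1 h, but above only 69.6% at 4 h. For SMAD6 the ratio was 2.64 ± 0.55, 2.10 ± 0.14, 1.22 ± 0.085, 1.48 ± 0.21 and 1.09 ± 0.22 at the same times. It was above 92.5% of genes before activation and above 49.6% at 4 h. Both genes thus began far above the median ratio, and at 4 h SMAD6 was level with it.

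**Figure D2:**
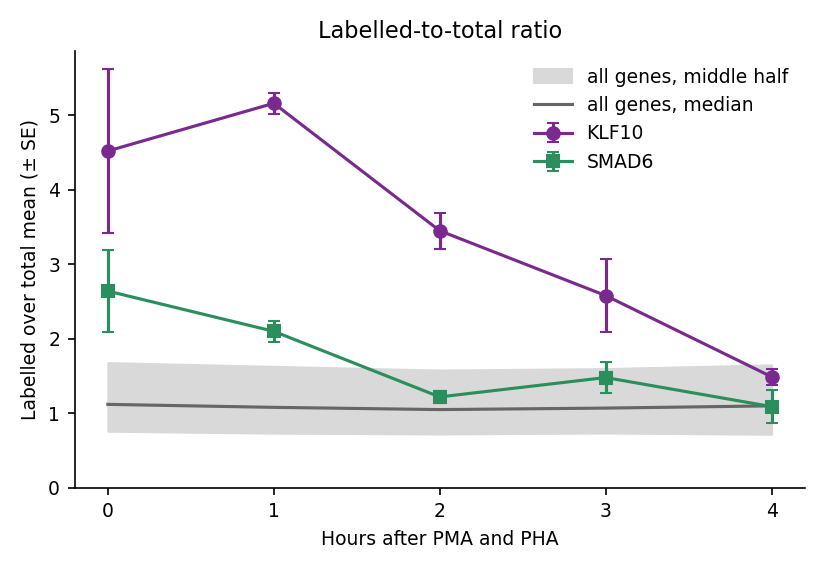
Labelled over total group mean (± SE) for KLF10 and SMAD6 against hours after activation, with the median (line) and the range between the quartiles (band) of all 7485 genes. KLF10 lies between 4.52 and 5.16 in the first hour and at 1.49 at 4 h, and SMAD6 at 2.64 before activation and 1.09 at 4 h, while the median stays between 1.05 and 1.12.

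The authors' deposited table turns the same means into decay rates, the natural log of total RNA less 0.266 times labelled RNA, over total RNA of the hour before, or of the same cells where they were unactivated. Recomputed this way, the rate of every gene that has one at each time matched within 0.01. The scaled labelled part of KLF10 was 120% of its total RNA before activation and 137% at 1 h, so no rate could be formed there. It was 91.9%, 68.6% and 39.8% at 2, 3 and 4 h. The authors' deposited rates for KLF10 at these hours were -1.50 ± 1.41, -1.60 ± 1.01 and -1.42 ± 0.32 (deposited SD), lower than those of all but 216, 159 and 270 genes. The median gene had -0.33, -0.36 and -0.36, so as computed these rates rank KLF10 among the fastest-lost transcripts of the table. The SD was close to the rate itself at 2 h. The same factor gave KLF10 more new RNA than total RNA at 0 and 1 h. It may thus be too high for this gene, and the later rates may overstate its loss, which was not tested. Without a rate in unactivated cells, KLF10 has no deposited T score of a change.

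For SMAD6 the authors' deposited rate was -1.21 ± 0.85 before activation, -0.83 ± 0.30 at 1 h, -0.59 ± 0.14 at 2 h, -1.22 ± 0.19 at 3 h and -0.52 ± 0.21 at 4 h. The rate of 3 h was lower than that of all but 333 genes, and the rate of 4 h than that of all but 2256. The T scores against unactivated cells in the authors' deposited table lay between -0.02 and 1.38. The scaled labelled part was 70.3% of total SMAD6 before activation and 55.8%, 32.6% and 39.3% at 1, 2 and 3 h.

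**Figure D3:**
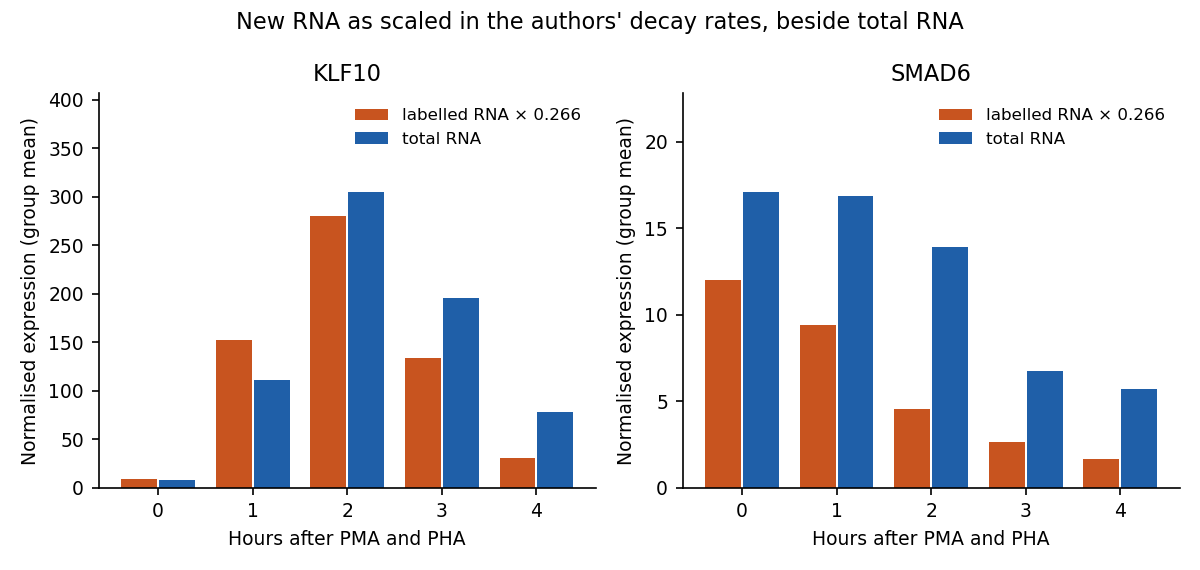
Labelled RNA multiplied by the factor 0.266 of the authors' rates, beside total RNA, as group means without error bars, for KLF10 and SMAD6 against hours after activation. The scaled labelled part of KLF10 exceeds its total RNA at 0 and 1 h, at 9.26 against 7.70 and 152 against 111, and is 31.2 against 78.4 at 4 h.

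HuR, the product of ELAVL1, binds U-rich and AU-rich stretches of mRNA and is known for keeping its targets stable, and its part in mRNA stability is a subject of the series. The authors' deposited table gives KLF10 a LOD score of HuR association of -1.99 at 4 h and -8.22 at 0 h, a difference of 6.23 where the median of 5017 genes was 0.88. That difference was larger than in 88.0% of genes. Both scores of KLF10 were negative, so the difference alone does not show HuR binding at 4 h. For SMAD6 the scores in the authors' deposited table were -8.34 at 4 h and -6.69 at 0 h, a difference of -1.65, which was larger than in 18.9% of genes. A further LOD column of the authors' deposited table, whose header does not give the cells in words, has the opposite order, with -5.74 for KLF10 and -0.79 for SMAD6, above 41.7% and 77.4% of 6376 genes. KLF10 was marked as an iCLIP target, as 19.4% of 7485 genes were, and as a target in the ELAVL1 3' UTR column of the authors' deposited table, as 61.0% of 7124 genes were. SMAD6 was marked as neither. Neither gene was among the 11.6% of 5017 genes marked in the column HuR_Any. No error comes with these scores, and none of the sources used here says how the calls were made.

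The pentamer AUUUA, a core of AU-rich elements, was counted in the longest 3' UTR of each gene in GENCODE release 29. KLF10 held 3 in 1353 bases and SMAD6 6 in 1313 bases, which is 2.22 and 4.57 per kb. The median of 7300 genes was 2.09, and 52.8% and 87.8% of genes were lower. The longer element UUAUUUAUU was in neither, and 10.8% of genes hold it. The 3' UTR of KLF10 was 66.0% A and U, that of SMAD6 58.9%, and the median 60.3%.

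The other genes of the pathway were read from lists by role. Of their 189 symbols, 79 genes were measured besides KLF10 and SMAD6, which here means held in the deposited table. How the genes of that table were chosen is unknown, and its lowest group mean of any gene was 1.08. A listed gene missing from it may thus have been left out for a low level, which was not tested. The 79 genes were tested with limma over all 7485 genes, with p-values adjusted by Benjamini-Hochberg and a threshold of 0.05. At 1 h in total RNA 5 of the 79 rose and 0 fell, where 0.935% of all genes were called, 0.788% higher and 0.147% lower, and 1 was lower at an unadjusted p under 0.05. At 2 h 19 rose and 5 fell (30.4%), where 13.3% of all genes were called, 9.71% higher and 3.58% lower. At 3 h 32 rose and 10 fell (53.2%), where 29.8% were called, 18.9% higher and 10.9% lower. At 4 h 32 rose and 17 fell (62.0%), where 36.0% were called, 21.4% higher and 14.5% lower. The share called among these genes stood above the share of all genes at each hour in total RNA. Rises outnumbered falls, as they did among all called genes. With median centring 14 of the 79 rose and 6 fell at 2 h, and 28 rose and 17 fell at 4 h. For labelled RNA, 8 rose and 2 fell at 1 h, where 6.25% of all genes were called, 4.20% higher and 2.06% lower. At 2 h 20 rose and 10 fell, where 21.6% were called, 12.3% higher and 9.26% lower. At 3 h 24 rose and 11 fell, where 25.2% were called, 13.8% higher and 11.4% lower. At 4 h 18 rose and 13 fell, where 27.5% were called, 13.7% higher and 13.8% lower. Between 4 h and 1 h, 18 rose and 16 fell in total RNA, where 26.1% were called, 12.5% higher and 13.7% lower. In labelled RNA 12 rose and 18 fell over the same step, where 22.7% were called, 9.39% higher and 13.3% lower. The list median at 4 h was 0.16 in total and 0.05 in labelled RNA, against 0.02 and -0.01 for all genes. The lists hold many genes known to respond in T cells, and they were drawn up with results of these data known.

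Among TGF-beta and activin ligands, 3 of 15 were measured. TGFB1, the main form in immune cells, rose in labelled RNA at 1 h by 1.32 ± 0.33 (adjusted p = 0.00855 by limma), from low values, 12.4 ± 0.617 at 1 h and 4.36 ± 0.759 in unactivated cells (SD, n = 2 and n = 3). That call ended on the linear scale (adjusted p = 0.0522, range over 7 alternatives 0.0052 to 0.0522). At 4 h in total RNA 1 of the 3 rose, 1 fell and 1 was not called, where 36.0% of all genes were called. TGFB1 rose by 1.23 ± 0.24 (adjusted p = 0.000492 by limma), and TGFB3, another TGF-beta form, fell by 0.52 ± 0.15 (adjusted p = 0.00885 by limma). Labelled RNA at 4 h gave 0 rises and 1 fall, where 27.5% of all genes were called. There TGFB1 stood at 0.20 ± 0.30 (adjusted p = 0.652 by limma). TGFB3 stood at -0.70 ± 0.27 (adjusted p = 0.0486 by limma), a call lost with median centring. Of 17 BMP and GDF ligands, BMP10 alone was measured. At 4 h it rose by 0.51 ± 0.16 in total RNA (adjusted p = 0.0161 by limma) and by 0.87 ± 0.27 in labelled RNA (adjusted p = 0.0121 by limma). Its total values were low, 11.4 ± 1.42 in unactivated cells and 16.6 ± 1.13 at 4 h (SD, n = 3 each). Extracellular and membrane modulators were measured for 4 of 29 listed symbols, of which LRRC33 and NRROS name the same gene. At 4 h 1 rose, 1 fell and 2 were not called in each kind of RNA. Of all genes, 36.0% were called in total and 27.5% in labelled RNA. LTBP1, which holds latent TGF-beta in the matrix, fell in labelled RNA by 1.28 ± 0.34 (adjusted p = 0.00342 by limma). Its labelled values were low, 8.98 ± 3.72 in unactivated cells and 3.1 ± 1.12 at 4 h (SD, n = 3 each). FURIN, a protease that cleaves the TGF-beta precursor, rose by 0.81 ± 0.17 in total RNA (adjusted p = 0.000768 by limma) and by 0.99 ± 0.30 in labelled RNA (adjusted p = 0.0104 by limma). Total FURIN was also low, 4.54 ± 1.01 in unactivated cells and 8.74 ± 1.29 at 4 h (SD, n = 3 each). TGFB3, BMP10 and FURIN lie outside the rule for named genes and were added, after their values were seen, to complete these counts.

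Of 18 receptors and co-receptors 8 were measured. At 4 h in total RNA, 3 rose, 2 fell and 3 were not called, and in labelled RNA 2 rose, 2 fell and 4 were not called. Of all genes, 36.0% were called in total and 27.5% in labelled RNA. TGFBR2, the receptor that binds TGF-beta itself, rose to 45.4 ± 4.90 in total RNA at 4 h, against 11.8 ± 0.921 in unactivated cells (SD, n = 3 each), a log2 change of 1.86 ± 0.13 (adjusted p = 1.26e-09 by limma). ACVR1B, an activin type I receptor, rose by 1.17 ± 0.14 (adjusted p = 1.38e-06 by limma). Both also rose in labelled RNA at 4 h, by 1.52 ± 0.19 and 1.13 ± 0.22. Neither was called at 1 h in either kind of RNA, with changes between -0.19 and 0.27.

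Receptor-activated and common SMADs were measured for 5 of 6. In total RNA at 4 h 0 rose, 3 fell and 2 were not called, where 36.0% of all genes were called, 14.5% lower. SMAD3, which carries TGF-beta signals, fell by 0.76 ± 0.15 (adjusted p = 0.000529 by limma), to 10.3 ± 0.287 at 4 h, against 18.2 ± 1.90 in unactivated cells (SD, n = 3 each). The BMP-branch SMADs SMAD1 and SMAD5 fell by 0.46 ± 0.16 (adjusted p = 0.0283 by limma) and 0.40 ± 0.08 (adjusted p = 0.000702 by limma). SMAD2 stood at -0.01 ± 0.08 and SMAD4 at 0.25 ± 0.12, both without a call, although SMAD4 was called from the 2 groups alone (adjusted p = 0.0363 by limma, range over 8 alternatives 0.0363 to 0.212). In labelled RNA 6.25%, 21.6%, 25.2% and 27.5% of all genes were called at 1, 2, 3 and 4 h. Of the 5 SMADs 0 were called by limma at any hour in labelled RNA, and 0 had an unadjusted p under 0.05. Their changes from unactivated cells lay between -0.52 and 0.32. Their SE at 4 h was 0.12 to 0.26 in labelled RNA and 0.08 to 0.16 in total RNA, so the missing calls do not show that labelled levels were equal. With quantile normalisation 1 was called, SMAD2 at 2 h, by -0.33 (adjusted p = 0.0361 by limma). The only inhibitory SMAD among the genes of the deposited table was SMAD6, whose total RNA differed by -1.43 ± 0.15 at 4 h.

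Of 24 ubiquitin ligases, deubiquitinases, phosphatases and other regulators of SMADs, receptors or KLF10, 22 were measured. Of these, 9 rose, 5 fell and 8 were not called in total RNA at 4 h, where 36.0% of all genes were called. SMURF2, a ligase that SMAD7 brings to TGF-beta receptors, rose by 0.62 ± 0.09 (adjusted p = 3.17e-05 by limma). In labelled RNA at 1 h it rose by 0.56 ± 0.18 (adjusted p = 0.0453 by limma), a call that ended with only the 2 groups compared, a constant prior variance and the linear scale (range of adjusted p over 8 alternatives 0.036 to 0.294). SIAH2, a RING ubiquitin ligase, fell by 1.01 ± 0.10 in total RNA at 4 h (adjusted p = 1.27e-07 by limma). PMEPA1, which keeps SMAD2 and SMAD3 from the receptor and is itself induced by TGF-beta, fell by 1.43 ± 0.14 in total RNA and by 2.03 ± 0.17 in labelled RNA at 4 h (adjusted p = 1.28e-07 and 9.52e-13 by limma). It fell in labelled RNA at 1 h already, by 0.78 ± 0.20.

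SMAD co-repressors, co-activators and anchors were measured for 15 of 25. At 4 h 7 rose, 1 fell and 7 were not called in total RNA, where 36.0% of all genes were called. In labelled RNA at 1 h, where 6.25% of all genes were called, 2 rose, 0 fell and 13 were not called. SKIL and TGIF2, which repress SMAD target genes, were those 2. Labelled SKIL was 38.4 ± 2.81 before activation, 106 ± 13.1 at 1 h, 105 ± 12.0 at 2 h, 85.5 ± 17.4 at 3 h and 45.6 ± 5.99 at 4 h (SD, n = 3, and n = 2 at 1 h). Like labelled KLF10 it was high early and lower at 4 h than at 1 h, with a log2 change between 4 h and 1 h of -1.20 ± 0.20 (adjusted p = 1.64e-05 by limma). Labelled TGIF2 rose by 1.21 ± 0.18 at 1 h (adjusted p = 2.81e-06 by limma), and differed by -1.02 ± 0.18 between 4 h and 1 h. Its rise in total RNA at 1 h, 0.52 ± 0.12 (adjusted p = 0.0345 by limma), lost its call with median centring, quantile normalisation and the linear scale (range over 8 alternatives 0.00717 to 0.133).

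Of 29 textbook SMAD target genes, 8 were measured besides KLF10 and SMAD6. Of these 8, SKIL is also on the list of co-repressors and PMEPA1 on that of ubiquitin ligases and other regulators, and both were counted in each list. At 4 h 6 rose and 2 fell in total RNA, where 36.0% of all genes were called. In labelled RNA at 1 h, where 6.25% of all genes were called, 4 rose, 2 fell and 2 were not called. ID3, an inhibitor of basic helix-loop-helix factors and a BMP target like SMAD6, had total values of 3.07 ± 1.08 before activation, 7.60 ± 0.125 at 1 h, 16.4 ± 0.983 at 2 h, 7.48 ± 0.769 at 3 h and 8.05 ± 1.27 at 4 h (SD, n = 3, and n = 2 at 1 h). It rose by 2.10 ± 0.17 at 2 h (adjusted p = 5.03e-08 by limma), when total SMAD6 differed by -0.28 ± 0.15. CDKN1A and JUNB rose in total RNA at 4 h by 2.68 ± 0.12 and 1.10 ± 0.13, while MYC fell by 1.82 ± 0.11. ITGAE, the integrin chain CD103 that TGF-beta induces in T cells, fell in labelled RNA at 1 h by 1.16 ± 0.27 (adjusted p = 0.00343 by limma). That call ended on the linear scale (adjusted p = 0.0997, range over 8 alternatives 0.00313 to 0.0997). Labelled ITGAE rose at 4 h by 0.91 ± 0.24 (adjusted p = 0.00329 by limma). The measured targets of the pathway did not share 1 direction. The list does not separate genes that the pathway induces from genes that it represses, so the mixed signs do not tell whether it was active. On the linear scale the calls of CDKN1A and ID3 at 1 h in total RNA also ended (adjusted p = 0.178 and 0.0598 by limma, with ranges over 7 alternatives of 3.39e-08 to 0.178 and 0.000312 to 0.0598).

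The branch of the TGF-beta receptor that runs through the kinase TAK1 had 5 of 8 genes measured. Of these, 3 rose, 0 fell and 2 were not called in total RNA at 4 h, where 36.0% of all genes were called. With median centring, and likewise with quantile normalisation, only 1 rose. TRAF4, an adaptor of this branch, rose by 1.00 ± 0.14 in total RNA at 1 h (adjusted p = 0.000262 by limma), and by 2.20 ± 0.12 at 4 h (adjusted p = 6.9e-11 by limma). The call at 1 h ended on the linear scale (adjusted p = 0.0877, range over 8 alternatives 1.86e-12 to 0.0877).

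In the family of KLF10 itself, 10 other KLF and SP genes of 25 were measured, and 0 were called by limma at 1 h in total or labelled RNA, where 0.935% and 6.25% of all genes were called, so a count of 0 among 10 is near the background. At an unadjusted p under 0.05 these were 1, KLF6, in total and 0 in labelled RNA. At 4 h 2 rose, 3 fell and 5 were not called in total RNA, and 2 rose, 4 fell and 4 were not called in labelled RNA. Of all genes, 36.0% were called in total and 27.5% in labelled RNA. KLF3 and KLF16 fell in labelled RNA at 4 h by 1.08 ± 0.27 (adjusted p = 0.00216 by limma) and 1.30 ± 0.26 (adjusted p = 0.000112 by limma). With median centring and quantile normalisation the family counts at 4 h were the same.

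**Figure D4:**
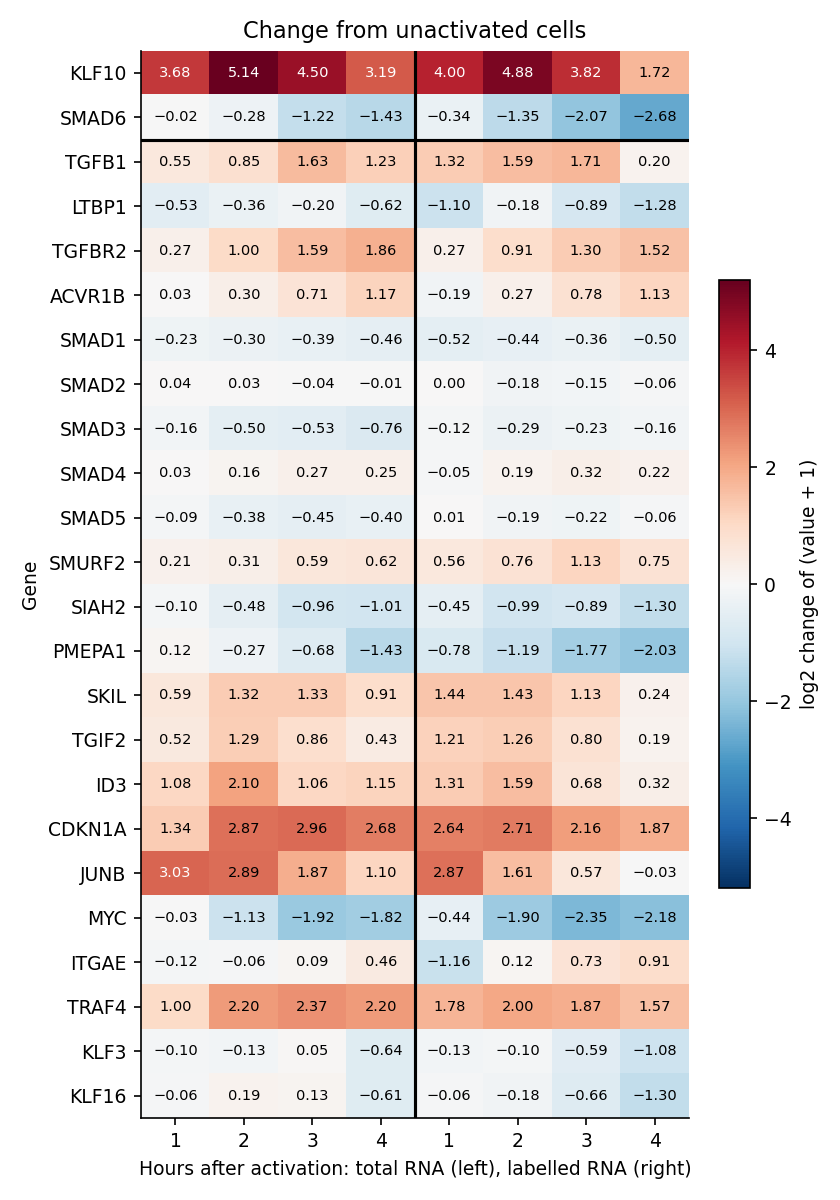
Log2 change of (value + 1) from unactivated cells at 1 to 4 h in total RNA (left columns) and labelled RNA (right columns), for KLF10 and SMAD6 (top) and the pathway and family genes that met the rule for named genes, with 3 samples a group and 2 at 1 h. KLF10 reaches 5.14 in total RNA at 2 h, and SMAD6 reaches -2.68 in labelled RNA at 4 h.

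Genes with the most similar course were found by the root mean square difference over the 8 log2 changes, 4 hours in each kind of RNA. For KLF10 the nearest was DUSP2, a MAP kinase phosphatase, at a difference of 0.579 (Pearson r = 0.956 over the 8 values), and then CD83, a surface protein of activated lymphocytes, at 1.18 (r = 0.881). NAB1, IL27RA and N4BP3 followed at 1.58, 1.62 and 1.65, with lower r of 0.476, 0.202 and 0.426. KLF10 was chosen with its large changes known, so few genes could lie near it by this measure. Genes with a course of like shape but smaller changes were not searched for. For SMAD6 the nearest were TSHR, the thyrotropin receptor (0.221, r = 0.973), MZB1 (0.261, r = 0.955), PDGFC, a growth factor (0.302, r = 0.955), SIPA1L2 (0.323, r = 0.932) and RASGRP1, an activator of RAS in T cells (0.331, r = 0.948). The changes share their unactivated samples, and no test was made.

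Across all groups, the SD of the median gene was 6.37% to 11.2% of its mean in total RNA and 10.4% to 18.2% in labelled RNA, with the widest spread in labelled RNA of unactivated cells. Of 12 T cell markers 7 were measured, at a summed total level of 1925 to 2442. Of 6 myeloid and 5 fibroblast markers, 2 each were measured (AIF1 and VCAN, summing to 99.3 to 124, and VIM and THY1, summing to 413 to 588), and 0 of the 5 B cell, 3 erythroid and 4 endothelial markers were among the genes of the table. Their part in the results was not tested. Rises made up 84.3%, 73.1%, 63.5% and 59.6% of the called genes in total RNA at 1, 2, 3 and 4 h. Median centring gave 69.6%, 50.2%, 48.6% and 51.0%, and quantile normalisation 71.7%, 52.8%, 47.5% and 48.8%. Among labelled calls at 1 h the share was 67.1%, and 56.8% after quantile normalisation. No called change of a named pathway gene turned its sign under these scalings.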

How the data were processed

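Per the submitters' processing notes, the authors used TopHat2, HTSeq and edgeR on hg19, and no role or version is known. The deposited table holds the authors' group means and SDs of a normalised expression signal. It also holds their average RPKM, LOD scores and text calls of HuR targets, and decay rates on a natural log scale with their SDs and T scores, per the file headers. Library preparation used biotin-HPDP pull-down of labelled RNA and ScriptSeq after Ribo-Zero depletion, per the labels. The series' design text calls the replicates biological without naming separate cultures, so p-values measure the spread between these samples.

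KLF10, SMAD6 and the lists were chosen with earlier results of these data known. Means were taken as log2(value + 1), which understates changes of low genes, and SDs were carried to that scale to first order. limma 3.58.1 in R 4.3.3 pooled variances over the 5 groups of 1 kind of RNA (9 degrees of freedom) with a trend and the robust option. This procedure was tested on simulated data. Named genes were all measured SMADs, list genes called at 1 h, the 10 most changed of those called at 4 h and the 5 between 4 h and 1 h, in each kind of RNA, and the 5 genes nearest to each member. The filter, a mean of at least 1 in any group, removed 0 genes. Depth is unknown, and only for total RNA at 1 h could a normalised library size be worked out. Other settings tried were other pseudocounts, scalings, a stricter filter, the 2 groups alone, a constant prior variance and the linear scale.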

Additional observations from a re-analysis of the deposited data

How the results depend on the processing

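No paired analysis was possible because the table gives group means and SDs only, and leaving out single replicates could not be run for the same reason. The count of called genes moved by over 1.5 times in these cases. In total RNA at 1 h it was 70, with 161 from the 2 groups alone and 46 on the linear scale. In total RNA at 2 h it was 995, and 1703 from the 2 groups alone. In labelled RNA at 1 h it was 468, with 228 from the 2 groups alone and 275 with a constant prior variance. A pseudocount of 5 shrank changes by more than the spread between samples for both members. Total KLF10 then differed from unactivated cells by 3.19 at 1 h, 4.61 at 2 h and 2.71 at 4 h. Total SMAD6 then stood at -0.91 at 3 h and -1.05 at 4 h, and between 4 h and 1 h at -1.03 in total and -1.85 in labelled RNA. No change of KLF10 or SMAD6 larger than its spread turned its direction under the 2 pseudocounts, median centring or quantile normalisation. Of the comparisons of other named genes under all 8 alternatives, which add the stricter filter, the 2 groups alone, a constant prior variance and the linear scale, 28 lost and 10 gained a call, 1697 did neither, and no called gene reversed. The cause was not tested. SMAD6 had a mean of 5.69 in total RNA at 4 h, and the reads behind it are unknown.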
